A study of Mus musculus with 8 samples.

Results

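The early growth response (EGR) genes and other immediate early genes were followed over 8 Agilent arrays of sorted mouse bone marrow progenitors. The set held 10 genes of the 20887 that the arrays could name. These were Egr1, Egr2, Egr3 and Egr4, the AP-1 subunit genes Fos, Fosb, Jun and Junb, and the genes Ier2 and Dusp1. They were found by RefSeq symbol, and each had 1 probe. The set was selected on the measured difference between JAK2V617F and JAK2 wild-type arrays, for which Egr4 was singled out, so that difference is given below as a description with no test.

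The arrays covered 4 genotypes in 2 cell fractions, with 1 array for each combination. The genotypes were JAK2V617F/Ezh2Δ/Δ (JAK2V617F, Ezh2flox/flox and Cre-ERT2), JAK2V617F (with Cre-ERT2), Ezh2Δ/Δ (Ezh2flox/flox with Cre-ERT2) and WT (Cre-ERT2 alone), so all donors carried the Cre-ERT2 transgene, a Cre recombinase that tamoxifen activates. Whole marrow of these mice was given to CD45.1+ wild-type hosts after lethal irradiation. Deletion of Ezh2 was induced at 4 weeks, and cells were sorted 2 months after the transplant. The fractions were MEP, megakaryocyte and erythroid progenitors, and LSK, the Lineage-c-Kit+Sca-1+ fraction that holds the stem cells, from C57BL/6 mice by the labels, which do not give the mice's ages. The form of the JAK2V617F allele and the number of recipients pooled for an array are not given in the sources used here.

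JAK2V617F is an activating mutation of the kinase JAK2 found in myeloproliferative neoplasms, and Ezh2 is the enzyme of Polycomb repressive complex 2 that methylates histone H3 at lysine 27. Immediate early genes are transcribed within minutes of a signal, without new protein synthesis, mostly through the ERK and p38 MAP kinases acting on serum response factor with its ETS partners at CArG boxes and on CREB at cyclic AMP response elements (CREs). EGR proteins are zinc finger transcription factors that bind GC-rich sites and are held in check by the NAB co-repressors. Fos and Jun proteins pair to form AP-1, and Dusp1 is a phosphatase that switches MAP kinases off. In blood stem cells Egr1 is known as a regulator of quiescence, and Egr1 and Egr2 also act in myeloid differentiation. Immediate early genes are also induced by tissue dissociation and cell sorting.

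All values below are log2 levels: the probe's signal relative to the 75th percentile of its own array, so that 0 is the signal of a fairly bright probe. A level can be compared between arrays for 1 gene and not between genes. On all 8 arrays, 9 of the 10 genes lay well above background and none was saturated. Egr3 lay below that limit on all 8 arrays, at -4.29 and -4.87 on the JAK2V617F/Ezh2Δ/Δ and JAK2V617F MEP arrays, -4.55 and -4.64 on the Ezh2Δ/Δ and WT MEP arrays, -3.50 and -3.71 on the JAK2V617F/Ezh2Δ/Δ and JAK2V617F LSK arrays, and -5.88 and -4.71 on the Ezh2Δ/Δ and WT LSK arrays. No fold and no test is given for Egr3. With 1 array for each group there was no spread between replicates. The tests below take their error from the spread left over all arrays after effects of fraction, JAK2 and Ezh2 had been fitted. Each gene's variance was drawn towards a prior taken from all genes tested. In bulk samples such as these, fewer cells expressing a gene and less RNA per cell cannot be told apart.

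The 250 bases before the start site were searched for sites of the factors named above, on both strands, in RefSeq sequence of mouse build GRCm38.p6. Of the 10 genes, 7 had an entry that was searched, all but Egr1, Egr3 and Ier2. Egr2 had 5 windows and is counted where any of them held a site, so counts are of genes while shares are of windows. The core of the CRE (TGACGT) was present in 4 of the 7, Egr4, Egr2 (not in all of its windows), Fos and Dusp1, and 6.5% of 32536 promoter windows of that length held it. Those 4 are shown because they share this element although their levels followed different arrays, and capitals mark the CRE core and, in Egr2, the CArG box. The Egr4 stretch is chr6:85513590-85513839 on the minus strand, the Egr2 stretch (1 of 5 annotated starts) chr10:67537619-67537868 on the plus strand, the Fos stretch chr12:85473640-85473889 on the plus strand and the Dusp1 stretch chr17:26508473-26508722 on the minus strand.
Egr4: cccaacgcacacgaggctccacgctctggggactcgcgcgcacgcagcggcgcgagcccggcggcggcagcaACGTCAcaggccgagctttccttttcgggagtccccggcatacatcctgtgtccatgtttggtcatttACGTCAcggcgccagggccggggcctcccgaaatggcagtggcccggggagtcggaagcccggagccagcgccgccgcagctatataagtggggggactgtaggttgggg
Egr2: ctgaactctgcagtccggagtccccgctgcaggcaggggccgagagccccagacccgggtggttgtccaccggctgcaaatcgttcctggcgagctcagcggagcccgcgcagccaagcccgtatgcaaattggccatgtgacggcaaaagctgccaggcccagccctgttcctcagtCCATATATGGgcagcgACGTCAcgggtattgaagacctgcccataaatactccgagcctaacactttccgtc
Fos: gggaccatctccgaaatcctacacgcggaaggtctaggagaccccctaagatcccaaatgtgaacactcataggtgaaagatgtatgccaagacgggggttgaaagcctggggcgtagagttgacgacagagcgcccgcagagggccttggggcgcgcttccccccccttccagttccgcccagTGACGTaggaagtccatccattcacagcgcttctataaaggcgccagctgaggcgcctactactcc
Dusp1: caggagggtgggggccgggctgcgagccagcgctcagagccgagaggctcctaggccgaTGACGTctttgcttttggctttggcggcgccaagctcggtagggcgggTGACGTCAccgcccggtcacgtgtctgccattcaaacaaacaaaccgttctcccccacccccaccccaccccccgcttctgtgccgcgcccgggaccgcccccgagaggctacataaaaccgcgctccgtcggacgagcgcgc

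Counted from the start site, the Egr4 stretch held CRE cores at -178 to -173 and at -110 to -105. In Egr2 a CArG box at -72 to -63 was followed by a CRE core at -56 to -51, and in Fos the core stood at -66 to -61. Dusp1 held 1 core at -191 to -186 and a palindromic site whose cores on the opposite strands overlap at -143 to -136. The CArG box, found in 1.48% of all windows, was present in Egr2 alone among the 7. The EGR site GCGNGGGCG, found in 4.74% of windows, stood in Fosb alone, and neither the AP-1 site TGANTCA (6.73%) nor the STAT element TTCNNNGAA (7.04%) occurred in any of the 7 windows. These are matches of letters within short windows, not measured binding.

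Egr4 was high on every JAK2V617F array and low on every JAK2 wild-type array. In MEP its level was 0.87 on the JAK2V617F/Ezh2Δ/Δ array and 1.88 on the JAK2V617F array, against -2.23 on the Ezh2Δ/Δ array and -1.30 on the WT array. In LSK it was 3.03 on the JAK2V617F/Ezh2Δ/Δ array and 2.84 on the JAK2V617F array, against -0.56 on the Ezh2Δ/Δ array and -0.82 on the WT array. The 2 sides did not overlap, and within each genotype the MEP array was below the LSK array. The top pair of arrays in this order, both JAK2V617F LSK, stood 1.14-fold apart, where the scanner software estimated an error of about 10% for each signal. On the dimmest array, Ezh2Δ/Δ MEP, that estimate was 21.7%.

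**Figure D1:**
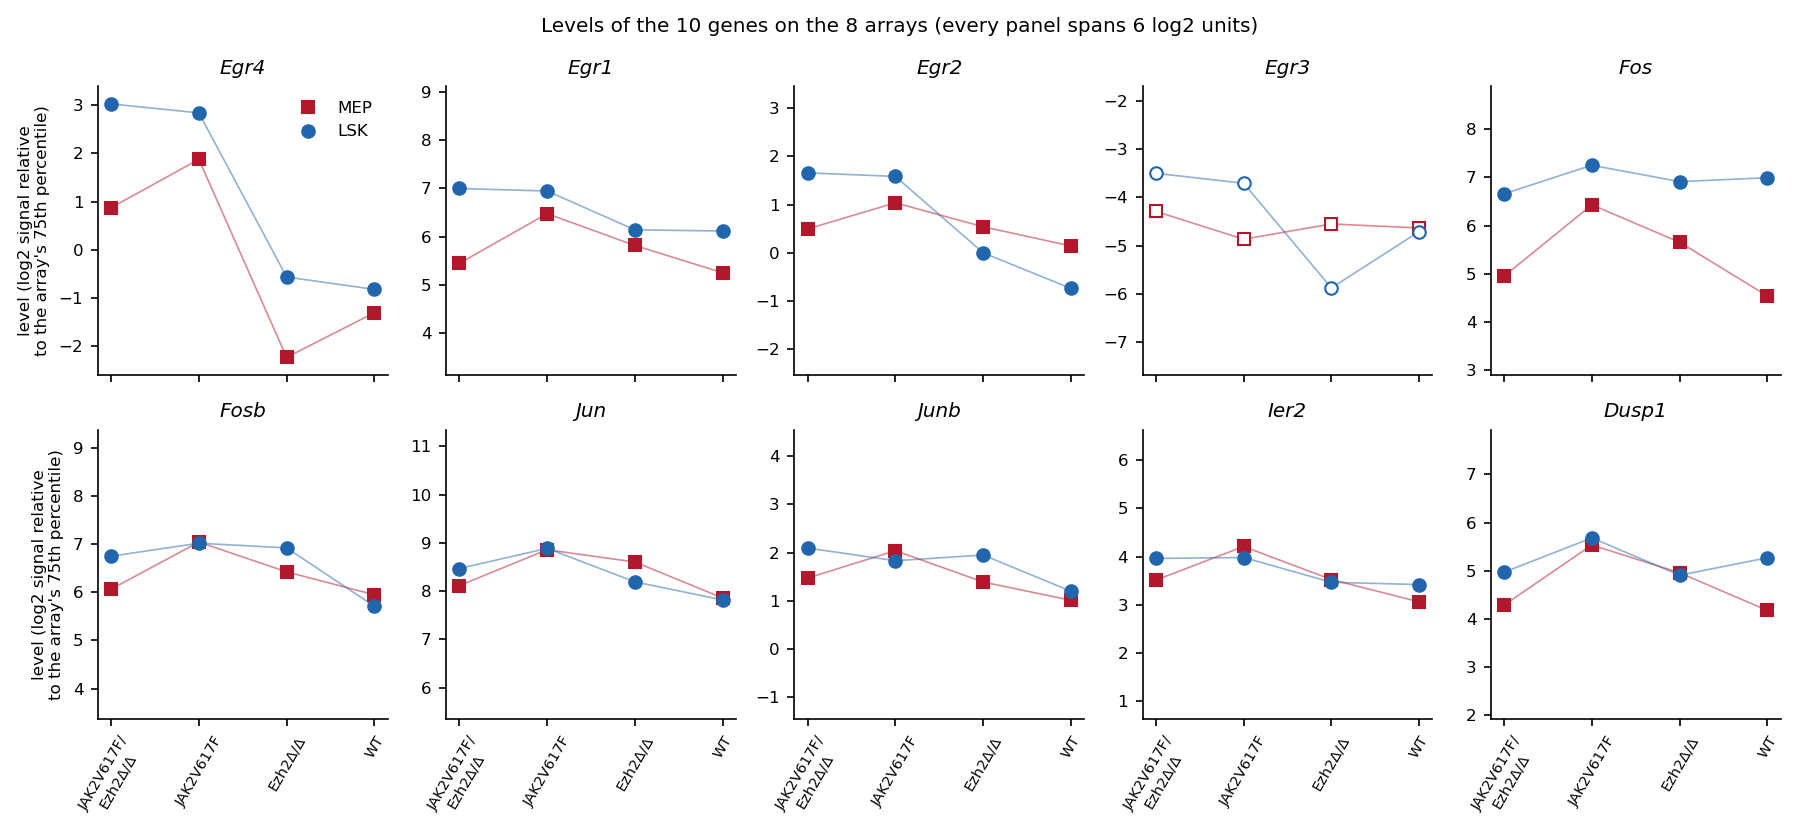
Levels of the 10 genes on the 8 arrays, on the log2 scale relative to each array's 75th percentile (every panel spans the same range), with MEP as red squares, LSK as blue circles and open symbols for values not well above background. Egr4 stands above 0 on the 4 JAK2V617F arrays and below 0 on the other 4, while Fos separates by fraction, from 4.54 to 6.43 in MEP and from 6.66 to 7.25 in LSK.

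The paralogs Egr1 and Egr2 followed Egr4 in LSK but less clearly in MEP. Egr1 stood in MEP at 5.44 with JAK2V617F/Ezh2Δ/Δ and 6.47 with JAK2V617F, against 5.81 with Ezh2Δ/Δ and 5.25 in WT. In LSK it stood at 7.0 with JAK2V617F/Ezh2Δ/Δ and 6.94 with JAK2V617F, against 6.14 with Ezh2Δ/Δ and 6.11 in WT. The JAK2V617F and JAK2 wild-type arrays of Egr1 were thus apart in LSK and interleaved in MEP. Egr2, which drives myelination in nerve and has roles in lymphoid and myeloid cells, read 0.50 in JAK2V617F/Ezh2Δ/Δ and 1.04 in JAK2V617F MEP, against 0.54 in Ezh2Δ/Δ and 0.14 in WT MEP. In LSK, Egr2 read 1.66 in JAK2V617F/Ezh2Δ/Δ and 1.59 in JAK2V617F cells, against 0.00 in Ezh2Δ/Δ and -0.74 in WT cells. For Egr2 the 2 sides were well apart in LSK, and in MEP the JAK2V617F array was the highest while the other 3 lay close together.

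The AP-1 genes and their companions were highest, among the MEP arrays, on the JAK2V617F array. Fos, which binds DNA as a partner of Jun proteins, read 4.95 in JAK2V617F/Ezh2Δ/Δ, 6.43 in JAK2V617F, 5.66 in Ezh2Δ/Δ and 4.54 in WT MEP. In LSK, Fos read 6.66 in JAK2V617F/Ezh2Δ/Δ, 7.25 in JAK2V617F, 6.91 in Ezh2Δ/Δ and 7.0 in WT cells. The 4 Fos levels of LSK lay close together and all above those of MEP. The Fos probe was printed 10 times on each array, and the SD between its spots was 0.0253 to 0.0544 log2 units.

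Fosb, a second Fos protein, read 6.06 in JAK2V617F/Ezh2Δ/Δ, 7.04 in JAK2V617F, 6.42 in Ezh2Δ/Δ and 5.95 in WT MEP. In LSK it read 6.75 in JAK2V617F/Ezh2Δ/Δ, 7.02 in JAK2V617F, 6.92 in Ezh2Δ/Δ and 5.71 in WT cells, so that the WT array alone stood apart there. Jun, the main Jun partner, read 8.11 in JAK2V617F/Ezh2Δ/Δ, 8.86 in JAK2V617F, 8.60 in Ezh2Δ/Δ and 7.86 in WT MEP, and 8.47, 8.89, 8.19 and 7.82 in LSK in the same order of genotypes. In both fractions the single mutants of Jun lay above WT, and in MEP the double mutant fell back towards it.

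Junb, a Jun protein that restrains myeloid expansion in mice, ranged from 1.01 in WT MEP to 2.09 in JAK2V617F/Ezh2Δ/Δ LSK. Ier2, a nuclear protein of the immediate early class, ranged from 3.06 in WT MEP to 4.21 in JAK2V617F MEP. Dusp1 read 4.29 in JAK2V617F/Ezh2Δ/Δ, 5.54 in JAK2V617F, 4.96 in Ezh2Δ/Δ and 4.18 in WT MEP. In LSK, Dusp1 read 4.97 in JAK2V617F/Ezh2Δ/Δ, 5.68 in JAK2V617F, 4.91 in Ezh2Δ/Δ and 5.27 in WT cells. The JAK2V617F arrays were thus the highest for Dusp1 in both fractions, and the double mutants were not.

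The difference between JAK2V617F and JAK2 wild type was read in 4 matched pairs of arrays. For Egr4 it was 3.18 in MEP and 3.66 in LSK with Ezh2 intact, and 3.10 in MEP and 3.59 in LSK with Ezh2 deleted, or 8.59-fold to 12.65-fold. Its mean over the pairs was 3.38, and 2.53 when the background was corrected by the normexp method, which adds an offset that compresses dim signals. Egr2 averaged 1.21, Egr1 0.64, Ier2 0.55, Junb, Fosb and Jun 0.46 to 0.47, Fos 0.30 and Dusp1 0.29. All 9 means were above 0, with a median of 0.47, where the median of 13187 genes was 0.01 and 48.5% of them were below 0. Without the WT MEP array the mean turned to -0.12 for Fos and -0.01 for Dusp1, and without the JAK2V617F MEP array it was -0.08 for Fos.

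Egr4 was the 1 gene of the 9 whose JAK2V617F arrays all lay above all JAK2 wild-type arrays, as did 1.13% of the genes tested. Egr4 and Junb were higher in all 4 pairs, as were 7.31%. These counts, and those of the pairs that follow, come from the contrast for which the set was chosen, and nothing is read from them.

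With Ezh2 intact all 9 genes were higher in JAK2V617F than in WT cells of both fractions, as were 50.4% of all genes in MEP and 57.7% in LSK. The median difference was 1.15 in MEP and 0.83 in LSK, where that of all genes was 0.00 and 0.10. In MEP 8 of the 9 were at least 2-fold higher, as were 4.18% of all genes, with Egr2 the exception at 0.89. In LSK 4 of the 9 reached 2-fold (Egr4, Egr2, Fosb and Jun), as did 3.98% of all genes.

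With Ezh2 deleted, Egr4 differed as much as with Ezh2 intact, whereas the other 8 genes lay near or below 0 in MEP. In LSK, Egr1 differed by 0.86 with Ezh2 deleted and 0.83 with Ezh2 intact, and Egr2 by 1.66 and 2.32. Between JAK2V617F/Ezh2Δ/Δ and Ezh2Δ/Δ MEP, Egr4 differed by 3.10, while the next highest, Junb, differed by 0.08 and the lowest, Fos, by -0.70. In this pair 2 of the 9 were higher, as were 38.5% of all genes, 1 of them at least 2-fold (4.81%), and the median of the 9 was -0.36 against -0.17 for all genes. Between JAK2V617F/Ezh2Δ/Δ and Ezh2Δ/Δ LSK 7 of the 9 were higher, as were 57.1% of all genes, and 2 at least 2-fold, as were 3.59%. The median of the 9 was 0.28, with Egr4 at 3.59 and with Fos at -0.25 and Fosb at -0.17. These are differences between single arrays and carry no test.

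**Figure D2:**
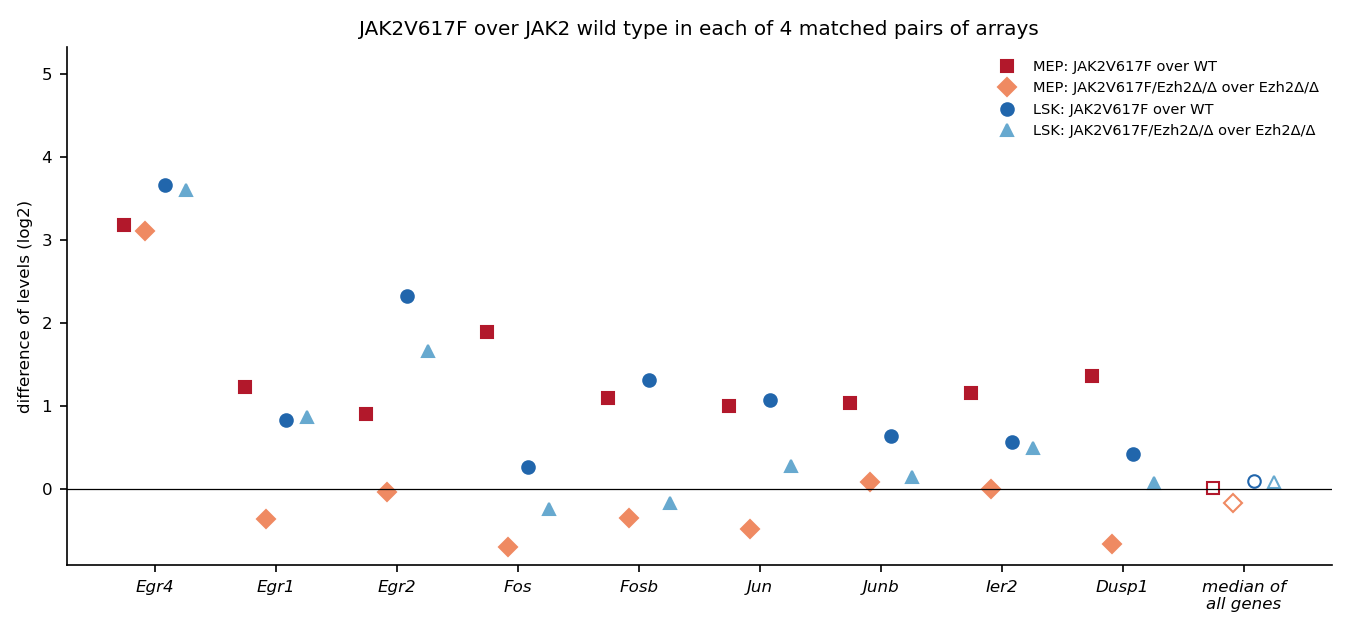
JAK2V617F over JAK2 wild type (log2 difference of levels) for the 9 measured genes in the 4 matched pairs of arrays, with open symbols at the right for the median of all 13187 genes. Egr4 lies between 3.10 and 3.66 in every pair, while in the pair of Ezh2-deleted MEP arrays (orange diamonds) the other 8 lie between -0.70 and 0.08.

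Genes of other cell types also differed between these arrays. The granulocyte list held late genes (S100a8, S100a9, Camp, Ngp and Ltf) and the primary granule genes Mpo, Elane and Prtn3, which immature progenitors also express. All 8 were above 0 for JAK2V617F over JAK2 wild type, where 48.5% of all genes were below 0. Of the 6 that were well above background on all 8 arrays, 3 (S100a8, S100a9 and Camp) were called higher by limma at a Benjamini-Hochberg adjusted p below 0.05. Of all 13187 genes tested, dim ones included, 0.22% were called higher. The summed level of the 8, in multiples of the 75th percentile, was 293 and 168 on the JAK2V617F/Ezh2Δ/Δ and JAK2V617F MEP arrays, against 47.4 and 23.4 on the Ezh2Δ/Δ and WT MEP arrays. In LSK it was 711 and 1959 against 404 and 607, mostly the signal of Mpo. The summed level of 4 megakaryocyte markers, none of them called, was 118 and 135 on the same JAK2V617F MEP arrays against 527 and 341 on the Ezh2Δ/Δ and WT MEP arrays, and 79.3 and 87.5 against 47.3 and 55.0 in LSK. That of the 8 LSK markers was 278 and 289 in JAK2V617F LSK against 379 and 408 in JAK2 wild-type LSK, mostly the signal of Cd34. The sums of monocyte markers were 15.0 to 82.4 on JAK2V617F and 10.2 to 25.5 on JAK2 wild-type arrays. Those of mast cell and basophil markers were 1.67 to 29.3 and 1.18 to 11.1, and those of T and NK cell markers 29.3 to 115 and 26.5 to 70.1. Those of B cell markers were 0.51 to 4.88 and 0.94 to 34.4. On each Ezh2-intact array only 1 of the 6 B cell markers was well above background. The highest B cell sums, 34.4 in LSK and 25.4 in MEP, were on the Ezh2Δ/Δ arrays. The T and NK cell sums were mostly the signal of Nkg7. For JAK2V617F the monocyte gene Cx3cr1 was called higher at 2.08 (SE 0.29, adjusted p = 0.0413 in limma). The mast cell and basophil gene Fcer1a was called higher at 2.26 (SE 0.27, adjusted p = 0.0198). The B cell gene Blnk was called lower at -2.20 (SE 0.25, adjusted p = 0.0185), where 14 of 13187 genes were. All 3 were well above background on all 8 arrays. In the interaction of JAK2V617F with Ezh2 deletion described next, 7 of the 8 granulocyte genes were below 0, as were 59.1% of all genes. The median of the 8 was -1.12, and none of them was called. The part of these cell types in the differences of the immediate early genes was not tested.

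Whether JAK2V617F and Ezh2 deletion combined additively was tested as an interaction over both fractions. The estimate was below 0 for all 9 genes, with a median of -0.80, where the median of all 13187 genes was -0.10 and 59.1% lay below 0. None of the 9 was called at an adjusted p below 0.05, nor was any other gene (0% called). Unadjusted, 4 of the 9 had a p below 0.05, as did 3.34% of all genes. These were Fos at -1.55 (SE 0.55), Fosb at -1.47 (SE 0.42), Dusp1 at -1.19 (SE 0.46) and Jun at -1.14 (SE 0.37), each with an adjusted p of 0.970 in limma.

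Egr4 stood at the other end of the set, with an interaction of -0.07 (SE 0.57). Its sign was not stable, being 0.10 after quantile normalization and between -0.63 and 0.48 when 1 array was left out. Egr1 and Egr2 had -0.79 (SE 0.47) and -0.80 (SE 0.69), Junb -0.72 (SE 0.40) and Ier2 -0.61 (SE 0.38). These too moved when 1 array was left out, Egr2 between -1.53 without the JAK2V617F/Ezh2Δ/Δ LSK array and -0.075 without the JAK2V617F/Ezh2Δ/Δ MEP array, and Egr1 between -1.29 and -0.29 without the same arrays. Fos ranged from -2.15 to -0.96, Dusp1 from -1.61 to -0.77, Fosb from -1.78 to -1.15, Jun from -1.41 to -0.88, Junb from -1.05 to -0.39 and Ier2 from -0.85 to -0.37.

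Within MEP the difference for JAK2V617F with Ezh2 deleted minus that with Ezh2 intact was negative for all 9 genes, from -2.59 for Fos and -2.03 for Dusp1 to -0.08 for Egr4. The median was -1.45 against -0.19 for all genes, and 6 of the 9 were below -1, as were 8.22% of all genes. Within LSK the median was -0.49 against -0.02, 8 of the 9 were negative, and Fosb alone was below -1, at -1.48, as were 2.87% of all genes. A difference negative in both fractions was found for 8 of the 9 genes, the exception being Egr1 at 0.03 in LSK, and for 33.7% of all genes. In MEP, 7 of the 9 were higher with JAK2V617F when Ezh2 was intact and lower when it was deleted, as were 32.9% of all genes. The JAK2V617F array was the highest of the 4 MEP arrays for all 9 genes, as for 34.2% of all genes, and the WT array the lowest of the 4 LSK arrays for 7 of the 9, as for 21.2%. The counts by sign of the JAK2V617F difference and by highest or lowest array use the contrast for which the set was chosen. Nothing is read from them.

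**Figure D3:**
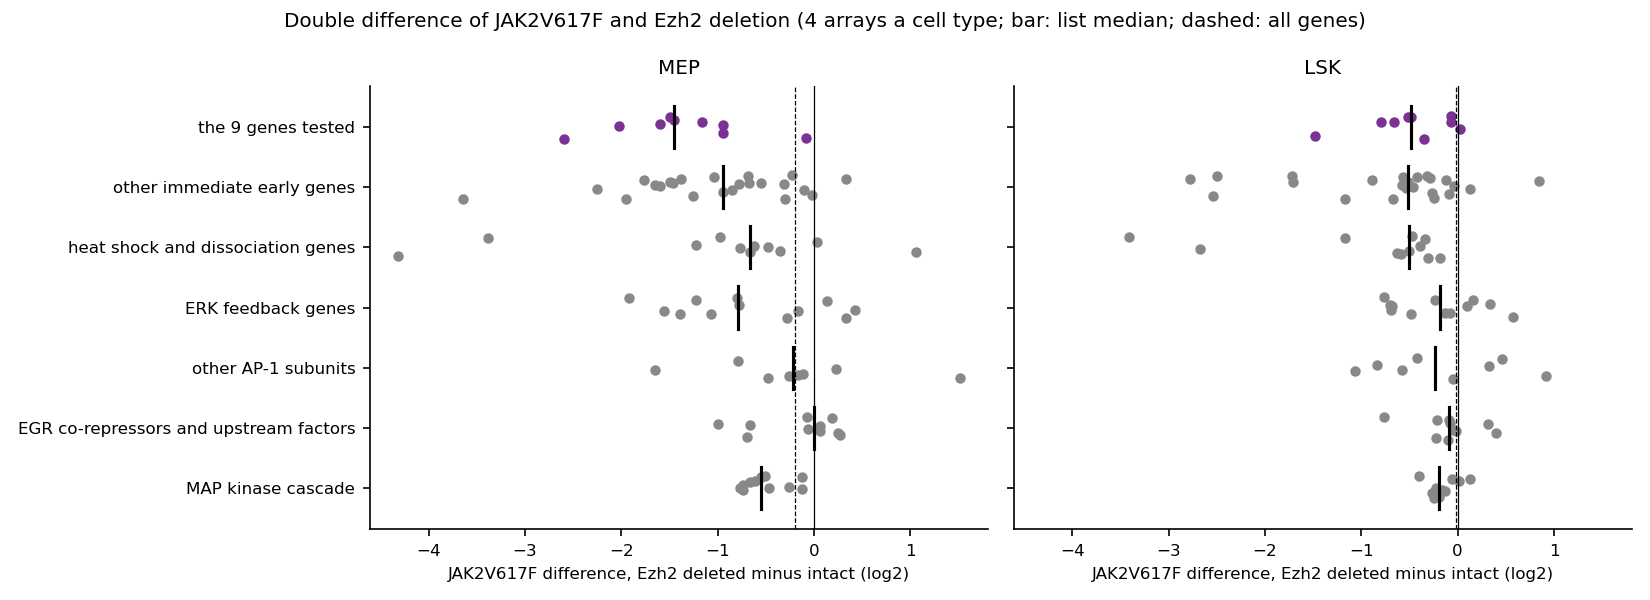
Difference of JAK2V617F with Ezh2 deleted minus that with Ezh2 intact (log2), in MEP and in LSK, for the 9 measured genes (purple) and the genes of 6 related lists (grey), with black bars at list medians and a dashed line at the median of all genes. In MEP the 9 genes have a median of -1.45 and the other immediate early genes one of -0.95, against -0.19 for all genes. Ezh2 status coincided with the sex of the marrow on all arrays.

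Other immediate early genes, from a list of 24 of which 23 could be tested, showed the same sign. Their interaction was below 0 for 22 of the 23, as for 59.1% of all genes, with a median of -0.74, and none was called. The lowest were the Krüppel-like factors Klf2 at -3.07 (SE 0.39, adjusted p = 0.147 in limma), Klf4 at -1.96 and Klf6 at -1.84, and the stress factor Atf3 at -1.91. Klf2, which keeps lymphocytes and endothelium quiescent, read 4.79 in JAK2V617F/Ezh2Δ/Δ, 6.64 in JAK2V617F, 5.61 in Ezh2Δ/Δ and 3.81 in WT MEP. In LSK, Klf2 read 7.21 in JAK2V617F/Ezh2Δ/Δ, 8.20 in JAK2V617F, 7.52 in Ezh2Δ/Δ and 6.01 in WT cells, so in both fractions WT was the lowest and JAK2V617F the highest. In LSK the median of the 23 double differences was -0.51, close to the -0.49 of the 9 genes.

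Heat shock genes, which handling of cells can also induce, are given beside these. Hspa1a, an inducible HSP70 gene, read 0.86 in JAK2V617F/Ezh2Δ/Δ, 4.73 in JAK2V617F, 1.75 in Ezh2Δ/Δ and 1.29 in WT MEP, and 1.08, 4.86, -0.06 and 0.31 in LSK in the same order. It was thus high on both JAK2V617F arrays with Ezh2 intact and low on the other 6. Its interaction was -3.87 (SE 0.70) and that of the small heat shock gene Hspb1 -3.03 (SE 0.56), both with an adjusted p of 0.460 in limma. Of the 11 genes measured from this list, 10 were below 0 in the interaction (59.1% of all genes), with a median of -0.63. For JAK2V617F over JAK2 wild type 10 of the 11 were above 0, where 48.5% of all genes were below 0. In LSK all 11 were above 0, with a median of 0.55, and in MEP 6 of the 11, with a median of 0.06. Of all genes 42.4% were below 0 in LSK and 60.6% in MEP. The part of these heat shock genes is taken up next. It was not tested against the levels of the 9 genes.

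The other lists of the pathway were read in the same interaction, where 59.1% of all genes were below 0, with a median of -0.10. All 11 genes of the MAP kinase cascade list were below 0 in the interaction, with a median of -0.33, from -0.49 for the kinase Map2k1 to -0.18. Among 12 genes of the ERK feedback list, which also held phosphatases of JNK and p38 such as Dusp8, 9 were below 0, with a median of -0.40. The lowest were the ERK phosphatase Dusp6 at -1.05 and the nuclear phosphatase Dusp2 at -1.02. Among 10 genes for EGR co-repressors and upstream factors 7 were below 0, with a median of -0.07 and the lowest estimate at -0.61 for Srf, the serum response factor. The 8 measured genes for other AP-1 subunits were split, with 5 below 0 and a median of -0.28. No gene of these lists was called.

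Deletion of Ezh2 gave no called difference among the 9 genes, where 0.705% of all genes were called. No member had an unadjusted p below 0.05, and the lowest adjusted p in limma was 0.450, for Egr4 at -0.37 (SE 0.27). The estimates ran from -0.39 for Dusp1 (SE 0.30) to 0.21 for Junb (SE 0.22), and their median of -0.05 compared with -0.11 over all genes. In single pairs of MEP arrays the signs were opposite by JAK2 status. Between JAK2V617F/Ezh2Δ/Δ and JAK2V617F MEP all 9 genes were lower, as were 62.2% of all genes, 4 of them at least 2-fold (Fos, Dusp1, Egr1 and Egr4), as were 7.8% of all genes, and the median was -0.98 against -0.20. Between Ezh2Δ/Δ and WT MEP 8 of the 9 were higher, as were 41.2% of all genes, with a median of 0.48 against -0.07 and Egr4 alone lower, at -0.93. In LSK, 4 of the 9 were higher between JAK2V617F/Ezh2Δ/Δ and JAK2V617F, as were 40% of all genes, with a median of -0.02, and 7 of the 9 between Ezh2Δ/Δ and WT, as were 40.9%, with a median of 0.26.

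**Figure D4:**
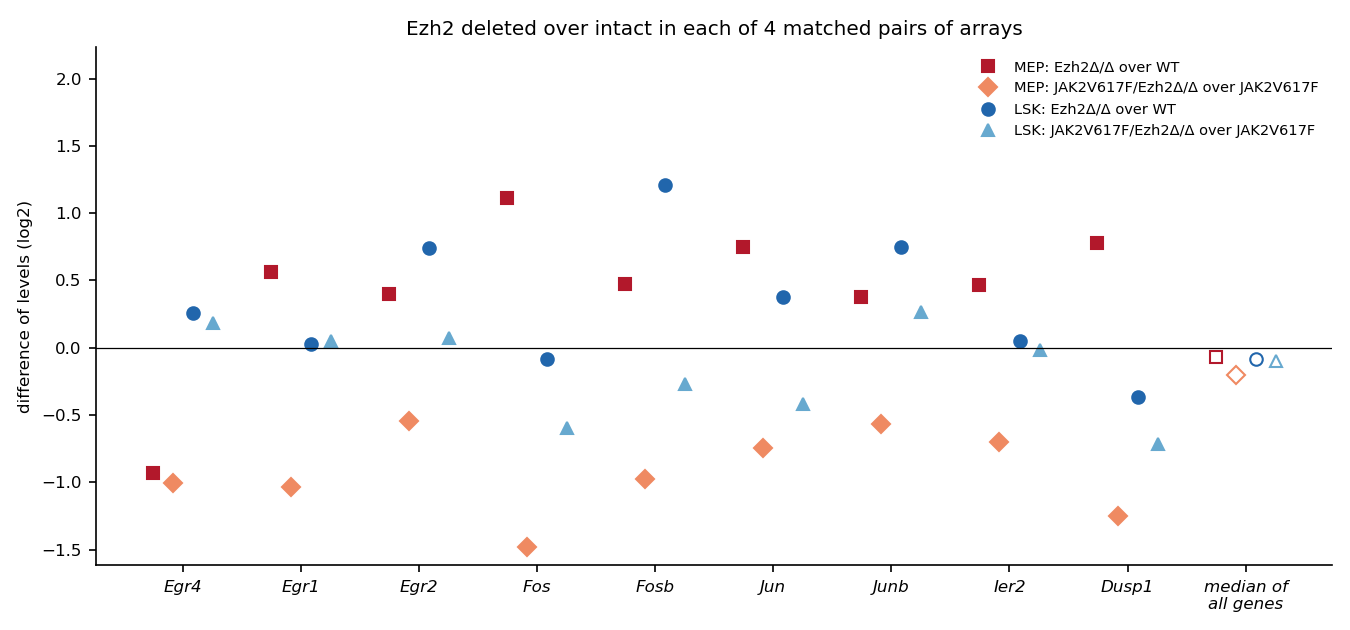
Ezh2 deleted over intact (log2 difference of levels) for the 9 measured genes in the 4 matched pairs of arrays, with open symbols for the median of all 13187 genes. In MEP the JAK2V617F/Ezh2Δ/Δ array lies below the JAK2V617F array for all 9 genes (orange diamonds, -1.48 to -0.54), and the Ezh2Δ/Δ array lies above the WT array for all but Egr4 (red squares).

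Ezh2 status coincided with the sex of the marrow on all 8 arrays, so the 2 cannot be told apart. The X-inactivation transcript Xist was at 1.57 to 2.99 on the Ezh2-deleted arrays, and at -3.07 or below on the Ezh2-intact arrays. The Y-linked gene Eif2s3y was below background on the Ezh2-deleted arrays and at 2.53 to 3.55 on the Ezh2-intact arrays. Ezh2 itself read 3.36 to 4.04 on the deleted and 3.50 to 4.23 on the intact arrays, and since the sources used here do not say whether its probe lies in the deleted exons, this does not check the labels. B cell markers had a summed level of 2.24 to 34.4 on Ezh2-deleted arrays and 0.51 to 2.49 on Ezh2-intact arrays, and Blnk, the 1 of the 6 that was well above background on all 8 arrays, was called higher at 2.76 (SE 0.25, adjusted p = 0.00635 in limma), where 0.66% of genes were.

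MEP and LSK differed for 3 of the 9 genes, where 39.9% of all genes were called. Fos was lower in MEP by 1.56 on the log2 scale (SE 0.38, adjusted p = 0.0139 in limma), averaging 5.40 ± 0.83 in MEP and 6.96 ± 0.24 in LSK (SD over 4 genotypes). Egr4 was lower in MEP by 1.32 (SE 0.27, adjusted p = 0.00656) and Egr1 by 0.80 (SE 0.26, adjusted p = 0.0417), and for each of the 3 the MEP array lay below the LSK array in all 4 genotypes, as for 24.3% of all genes. Fos was also the 1 gene of the 9 whose MEP arrays all lay below all LSK arrays, as did 17% of all genes. The share of the 9 called lower, 3 of 9, compares with 20.1% of all genes. The call of Egr1 was lost in 6 of the 8 fits that left out 1 array, all but those without the JAK2V617F or the Ezh2Δ/Δ MEP array, with adjusted p up to 0.122, and also when a common floor was set for dim signals (0.0739). That of Fos was lost without the JAK2V617F/Ezh2Δ/Δ MEP array (0.0561).

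The other 6 genes lay between -0.47 and 0.02 for MEP minus LSK, with SE between 0.20 and 0.36, and passed no test. Egr2 lay on opposite sides of 0 by JAK2 status, MEP minus LSK being -1.16 with JAK2V617F/Ezh2Δ/Δ and -0.55 with JAK2V617F, and 0.54 with Ezh2Δ/Δ and 0.88 in WT. The test of that difference gave -1.57 (SE 0.45, adjusted p = 0.383 in limma), and no gene was called in it. For Egr4 the Ezh2 difference was negative in MEP and near 0 in LSK, and the test of that difference gave -1.19 (SE 0.29, adjusted p = 0.549), where 0.00758% of genes were called.

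**Figure D5:**
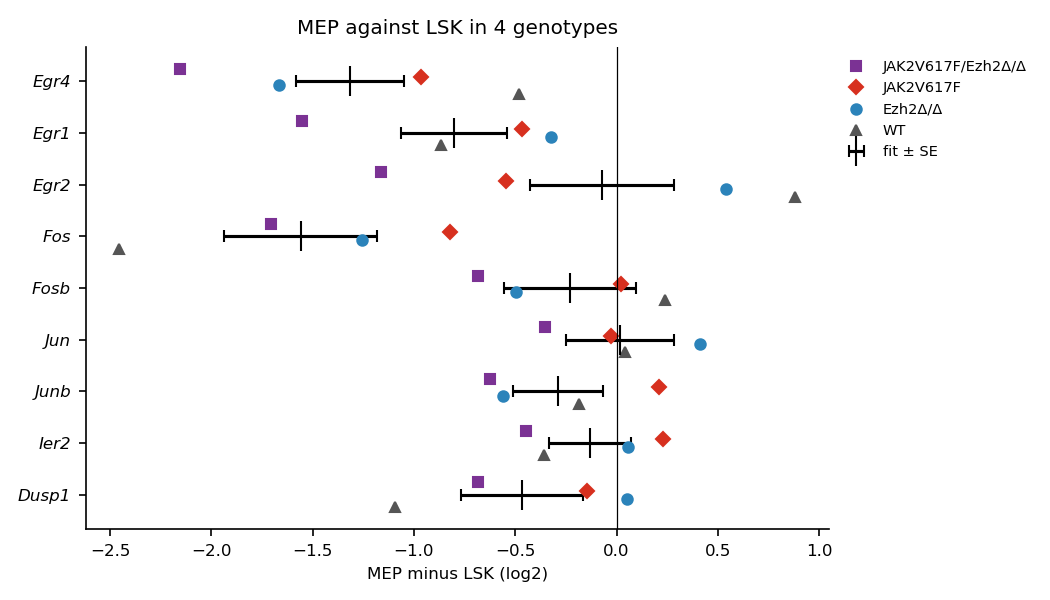
MEP minus LSK (log2 difference of levels) for the 9 measured genes, with the 4 genotypes as coloured symbols and the fitted estimate ± SE as a black bar. Egr4, Egr1 and Fos are below 0 in all 4 genotypes, and Egr2 lies on both sides of 0.

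The fractions themselves matched their labels. The summed level of the 8 LSK markers was 13.6 to 22.9 times the 75th percentile in MEP and 278 to 408 times in LSK, and that of 7 MEP markers 327 to 627 times in MEP and 10.5 to 27.8 times in LSK. Sca-1 (Ly6a) was at 3.46 to 3.91 in LSK and well above background on 1 MEP array, JAK2V617F/Ezh2Δ/Δ, at -2.65. The erythroid factor Klf1 was at 3.28 to 4.28 in MEP.

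The related lists were read against the 20.1% of all genes called lower in MEP and the 19.8% called higher. Those shares are of all 13187 genes tested. The list counts are over genes well above background on all 8 arrays, since a dim gene could enter the test through the fraction where it is high. The shares called among all genes that meet this stricter limit are not given. Of 20 such other immediate early genes 9 were called lower and none higher. Among them were Trib1, a pseudokinase that directs C/EBP proteins to degradation, at -2.32 (SE 0.21), Ier3 at -2.30 (SE 0.25), Klf2 at -2.02 (SE 0.58) and the orphan nuclear receptor Nr4a1 at -1.82 (SE 0.35). Of 10 such genes of the ERK feedback list 4 were called lower, with Dusp2 at -2.78 and Dusp4 at -2.28, and 2 higher, with the JNK and p38 phosphatase Dusp8 at 2.21.

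Among the factors that act on EGR genes and proteins, 4 of 10 were called lower in MEP, where 20.1% of all genes were, and none higher. Nab2, the co-repressor that EGR proteins induce and that represses them, fell by 2.82 (SE 0.29), and the ETS factor Elk3 by 2.29 (SE 0.16). The serum response factor co-activators Mrtfa and Mrtfb fell by 1.42 and 1.06. For JAK2V617F over JAK2 wild type, Nab2 had a difference of -1.03 that was not called (SE 0.29, adjusted p = 0.280 in limma). It read -0.43 and 0.69 on the JAK2V617F/Ezh2Δ/Δ and JAK2V617F MEP arrays, against 0.36 and 1.73 on the Ezh2Δ/Δ and WT MEP arrays. In LSK, Nab2 read 2.90 and 2.76 on those JAK2V617F arrays against 4.07 and 3.89 on the JAK2 wild-type arrays, so the 2 sides were apart in LSK and overlapped in MEP.

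Of 6 such genes for other AP-1 subunits, 3 were called lower in MEP, where 20.1% of all genes were. Fosl2, a Fos-related gene, was lower by 2.82 (SE 0.34), Batf2 by 1.41 (SE 0.36) and Batf, a partner of Jun in lymphocytes, by 0.93 (SE 0.16). Jdp2, a repressor of AP-1 sites, is not among the 6. It was well above background on the 4 LSK arrays, at 1.58 to 2.27, and on no MEP array. Of 10 such MAP kinase cascade genes 3 were called lower, near the share of all genes, the ribosomal S6 kinases Rps6ka1 and Rps6ka3 and Mapk3 (ERK1), and Mapk9 (JNK2) was called higher at 0.91. Heat shock genes went the other way, 5 of 11 being called higher in MEP, where 19.8% of all genes were, and none lower. Dnajb4 was at 1.48 and Hspe1 at 1.30.

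The 9 genes also differed in how alike their profiles were. Likeness was measured as the root mean square difference of levels over the 8 arrays after each gene's mean had been removed. Ier2 and Jun were the closest pair at 0.21, followed by Ier2 and Junb at 0.22 and Fosb and Junb at 0.23. Egr4 was at least 1.34 from every other member, its nearest being Egr2, and Egr1 was nearest to Dusp1 at 0.36 and to Ier2 at 0.37. Levels were not scaled, so this distance also holds how much each gene varied. The SD over the 8 arrays was 1.98 for Egr4 and from 0.38 (Ier2) to 1.01 (Fos) for the others. The distances of Egr4 are thus not read as a different order of arrays.

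Among the 10478 genes well above background on all 8 arrays, the 5 nearest to Egr4 were Socs2, a suppressor of cytokine signalling, at 0.73, Fcer1a, the IgE receptor chain of mast cells and basophils, at 0.93, the pro-apoptotic gene Pmaip1 at 0.94, the neutrophil gene Lcn2 at 0.94 and the chemokine gene Cxcl2 at 0.95. Socs2 read 1.48 and 1.39 on the JAK2V617F/Ezh2Δ/Δ and JAK2V617F MEP arrays, against -0.78 and -1.94 on the Ezh2Δ/Δ and WT MEP arrays. In LSK it read 2.90 and 2.18 against 0.34 and -0.90. Every JAK2V617F array of Socs2 lay above every JAK2 wild-type array, as for 1.13% of the genes tested. Socs2 was picked for its likeness to Egr4, so nothing is read from this. Egr2 ranked 30 and Egr1 62 in likeness to Egr4 among 10477 genes, while Dusp1 ranked 579. The 5 nearest to Egr1 were Sgcb at 0.22, Arhgef39 at 0.25, the antiproliferative gene Btg2 at 0.27, the cholesterol synthesis gene Hmgcs1 at 0.27 and the lymphoid PI3-kinase gene Pik3cd at 0.27. Dusp1 ranked 77 and Ier2 114 in likeness to Egr1. These are descriptions over 8 arrays that share fraction and genotype, and Egr4 was chosen for its profile.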

How the data were processed

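RNA of 8 sorted populations (20 ng each) was hybridised to 1-colour Agilent arrays on 1 slide, scanned once; each array held 62976 spots and 55681 probes, of which 39.8% to 48.8% were well above background. Rows of the slide held the fractions and columns the genotypes, so position and group cannot be told apart. The processed signal is an intensity that was background-subtracted by Feature Extraction 10.7.1.1, per the file headers. The deposited series table holds, for the same arrays, a ratio: the scanner signal divided by 1 factor per array close to its 75th percentile, as a comparison with the scanner values showed, and it served as an alternative. Here log2 signal minus the array's 75th percentile was used. Control spots and non-uniform spots were left out, spots of a probe were averaged, and 27509 probes (49.4%) were named through RefSeq accessions. A gene is its brightest probe by mean level.

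The 13187 genes well above background on at least 2 arrays were tested in R 4.3.3 by limma 3.58.1. Main effects came from 1 model with additive terms for fraction, JAK2 and Ezh2 over all 8 arrays. A fit with JAK2 and Ezh2 effects within each fraction gave their differences between fractions, and a fit with a JAK2 by Ezh2 term the interaction. Calls are at a Benjamini-Hochberg adjusted p below 0.05 over all 13187 genes. The error is what the other terms leave, with each gene's variance drawn by limma towards a prior from all genes tested. The p-values thus measure only the spread between these arrays, and the number of arrays limits the precision. Alternatives were quantile normalization, normexp background correction (offset 50), the series table, other filters and floors, probe averaging, a trended variance prior, matched pairs of arrays as a block and leaving out each array.

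The members and the lists were chosen with earlier results of these data known. From each list up to 4 genes are named per comparison, those called first, by size; likeness covers genes above background on all 8 arrays. Promoter sequences are RefSeq's.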

Additional observations from a re-analysis of the deposited data

Results flagged for a closer look

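For several of the genes, every pair of arrays on one side of a contrast differed one way and every pair on the other side the opposite way. Each such difference was tested as an interaction in limma, and none passed an adjusted p of 0.05. The patterns were searched for in these same data, and the share of all genes that show one is not given.

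For Egr4 the Ezh2 difference was -0.93 and -1.0 in MEP and 0.26 and 0.19 in LSK, and the fractions differed by -1.19 (adjusted p = 0.549). For Egr2 MEP minus LSK was -0.55 and -1.16 with JAK2V617F and 0.88 and 0.54 with JAK2 wild type, a difference of -1.57 (adjusted p = 0.383).

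For Fos the JAK2V617F difference was -0.25 and -0.70 with Ezh2 deleted and 0.26 and 1.89 with Ezh2 intact, a difference of -1.55 (adjusted p = 0.970). For Fosb it was -0.17 and -0.36 with Ezh2 deleted and 1.31 and 1.09 with Ezh2 intact, a difference of -1.47 (adjusted p = 0.970). The same interaction seen from the other side gave an Ezh2 difference of Fosb of -0.27 and -0.98 with JAK2V617F and 1.21 and 0.48 with JAK2 wild type. For Jun the Ezh2 difference was -0.42 and -0.74 with JAK2V617F and 0.38 and 0.75 with JAK2 wild type, a difference of -1.14 (adjusted p = 0.970). For Ier2 it was -0.02 and -0.70 with JAK2V617F and 0.05 and 0.46 with JAK2 wild type, a difference of -0.61 (adjusted p = 0.970). The -0.02 and 0.05 of Ier2 were 1.01-fold and 1.03-fold, less than the scanner error of about 10% for each signal, so their signs are not certain.

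MEP minus LSK was -0.50 and -0.68 for Fosb with Ezh2 deleted and 0.24 and 0.02 with Ezh2 intact, a difference of -0.72 (adjusted p = 1.00). For Jun it was -0.03 and -0.35 with JAK2V617F and 0.04 and 0.41 with JAK2 wild type, a difference of -0.42 (adjusted p = 0.775). The 0.02 of Fosb and the -0.03 and 0.04 of Jun were 1.02-fold to 1.03-fold, also less than that scanner error.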

How the results depend on the processing

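The calls of Egr4, Egr1 and Fos between MEP and LSK kept their direction under every alternative run, and the count of the 9 genes called ranged from 1 to 3 when 1 array was left out and from 2 to 3 otherwise. Leaving out 1 array moved Egr4's JAK2V617F difference between 3.17 and 3.60, and normexp gave 2.53. The Egr4 interaction was 0.10 with quantile normalization and 0.047 with arrays centred on the median gene (chosen after seeing the data, as was leaving out population-outlier spots), and -0.63 to 0.48 when 1 array was left out. The other 8 interactions of the set were negative in every fit, with 0 called, though their size moved. Counts over all genes moved more. The 43 genes called for JAK2V617F became 27 with quantile normalization, 92 with normexp, 18 without the filter, 139 with genes above background on all 8 arrays, 0 with a common floor, 126 with a trended prior, and 0 to 59 when 1 array was left out. For Ezh2 the 87 called higher became 27 with quantile normalization, 47 without the filter, 8 with the floor, 168 with the trended prior and 9 to 100 when 1 array was left out, and the 6 called lower became 16 with normexp, 17 with the filter on all 8 arrays, 2 with the floor, 19 with the trended prior and 3 to 7 when 1 array was left out. The 5261 for MEP against LSK became 9636 without the filter, and 3566 to 5661 when 1 array was left out. For the JAK2V617F effect between fractions 0 became 25 with the filter on all 8 arrays, and 0 to 140 when 1 array was left out. For the Ezh2 effect between fractions 1 became 6 with quantile normalization, 0 with normexp, with either other filter, with the floor and with median centring, and 0 to 132 when 1 array was left out. For the interaction 0 became 13 with normexp, 9 with the filter on all 8 arrays, 5 with the trended prior and 0 to 38 when 1 array was left out. The cause of these changes was not tested. The median of all genes for MEP minus LSK was 0.12, and 0.01 after quantile normalization and 0.21 after median centring. For Ezh2 it was -0.11, and 0.02 after median centring. For the interaction it was -0.10, and 0.02 after median centring and 0.0025 without the JAK2V617F/Ezh2Δ/Δ MEP array. The share of all genes below 0 in the interaction thus depends on how the arrays are scaled. With 1 array left out an arm has fewer arrays and its error is taken from the rest. No paired analysis was possible by replicate number because every group holds 1 array, numbered 1. With matched pairs of arrays as a block instead (added after seeing the data), 74 genes were called for JAK2V617F, 41 higher for Ezh2 and 4836 for MEP against LSK, and the 3 genes of the set kept their calls between MEP and LSK.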
